A study of Mus musculus with 12 samples.

Results

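The 8 genes described here are Ms4a2, Fcer1a, Il1rl1, Hdc, Cpa3, Mcpt8, Gzmb and Srgn, a group of mast cell and basophil genes joined by the cytotoxic granule protease Gzmb. They were measured by 10 probes among the 39429 on the array, which carries 31131 gene names, because Il1rl1 has 3 probes and every other member 1. All probes carrying these gene names were taken. The genes were picked with their values on these same arrays in view, so their levels and differences are given as a description, with no test.

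The arrays hold RNA of LSK cells, which lack lineage markers, carry Sca-1 and Kit and include blood stem cells and early progenitors. They were flow sorted from male mice of the DBA2/J strain. There were 4 groups with 3 arrays each. LSK cells were taken from peripheral blood after 5 days of G-CSF in 9 injections, after 1 hour of AMD3100, or after CWHM-823 with tGro-b, for which no time is given, and from the bone marrow of mice injected with PBS. G-CSF is the granulocyte growth factor, AMD3100 blocks the chemokine receptor CXCR4, CWHM-823 inhibits the integrin VLA-4, and tGro-b is a truncated chemokine that activates CXCR2. No array held LSK cells from the blood of untreated mice, so the treatment and the tissue cannot be told apart in any comparison with marrow. Whether arrays of one group stem from separate mice is not stated, so p-values reflect the spread between these samples alone, which may be technical.

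Mast cells and basophils are granule-bearing cells of the myeloid lineage that carry the high-affinity IgE receptor. Binding of antigen to IgE on that receptor releases histamine, proteases and proteoglycan stored in the granules, and starts the making of lipid mediators and cytokines. Some of these genes are also transcribed in multipotent and myeloid progenitors, before a mature cell is formed.

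Values are log2 processed signal minus the log2 of the array's 75th percentile, so 0 means a signal equal to that percentile. A spot is well above background by the scanner software's own flag. The 75th percentile itself lay between 1146.1 and 2723.8 signal units, 70.73 to 83.27% of probes were well above background on an array, and 0 spots were saturated. Each slide held 1 array of every group, and slide number and replicate number are the same. Kit and Ly6a (Sca-1), the genes of the sort markers, and the progenitor genes Cd34 and Flt3 were well above background on all 12 arrays. The third marrow array stood apart from the others in neutrophil transcripts: the summed signal of 9 neutrophil markers was 31.4 times the 75th percentile there, against 1.54 to 3.26 on the other 11 arrays, and the members' differences from marrow are therefore also given without it. Levels are compared between groups within a probe and not between genes. In sorted bulk RNA, fewer cells of a type and less RNA per cell cannot be told apart.

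The probes lie, in the mm9 coordinates of the scanner output, at chr14:56877916-56877975 on the minus strand for Gzmb, chr2:126419516-126419575 (minus) for Hdc, chr3:20115674-20115733 (minus) for Cpa3, chr10:61957432-61957491 (minus) for Srgn, chr1:175151438-175151497 (minus) for Fcer1a and chr19:11691701-11691760 (minus) for Ms4a2. The 3 Il1rl1 probes lie on the plus strand, at chr1:40520014-40520073 and chr1:40522187-40522246 in the transcript of the membrane receptor and at chr1:40504769-40504828 in the shorter transcript. No exon annotation of that build was used here. The scanner output gives no position for the Mcpt8 probe, so its 60 bases are printed as its identity, and no other probe of 39428 shared a run of 14 bases with it.
Mcpt8 probe: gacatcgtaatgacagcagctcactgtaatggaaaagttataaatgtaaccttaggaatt

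The start regions of Gzmb, Hdc and Cpa3 are shown because these 3 members read higher on every blood array than on every marrow array, by 0.70 or more on the log2 scale. They are RefSeq sequences of GRCm38.p6, 250 bases before to 50 after the annotated start, 5′ to 3′ along the gene, at chr14:56262285-56262584, chr2:126618629-126618928 and chr3:20242132-20242431, all on the minus strand. All 8 members had an entry in that table. Capitals mark matches, on either strand, to the GATA motif, counted as AGATAA or as its variant AGATAG or beginning with T instead (as TGATAA and in its variant TGATAG), to the AP-1 motif TGANTCA and to the RUNX motif TGTGGT.
Gzmb: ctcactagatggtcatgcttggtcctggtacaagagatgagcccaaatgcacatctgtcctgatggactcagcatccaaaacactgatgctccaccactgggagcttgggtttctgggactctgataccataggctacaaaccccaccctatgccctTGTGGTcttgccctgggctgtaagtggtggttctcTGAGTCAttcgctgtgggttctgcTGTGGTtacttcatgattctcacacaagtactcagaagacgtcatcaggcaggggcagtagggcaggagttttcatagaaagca
Hdc: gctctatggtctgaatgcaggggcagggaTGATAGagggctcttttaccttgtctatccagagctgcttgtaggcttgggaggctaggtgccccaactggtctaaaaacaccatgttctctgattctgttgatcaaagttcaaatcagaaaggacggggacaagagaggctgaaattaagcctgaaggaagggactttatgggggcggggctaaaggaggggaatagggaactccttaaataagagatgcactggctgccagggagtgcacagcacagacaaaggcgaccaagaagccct
Cpa3: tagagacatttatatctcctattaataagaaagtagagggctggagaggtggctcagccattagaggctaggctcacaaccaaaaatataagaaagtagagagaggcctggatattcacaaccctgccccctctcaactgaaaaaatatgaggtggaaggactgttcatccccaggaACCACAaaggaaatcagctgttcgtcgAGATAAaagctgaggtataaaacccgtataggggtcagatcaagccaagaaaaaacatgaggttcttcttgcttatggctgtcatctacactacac

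The Gzmb region held 1 AP-1 and 2 RUNX matches and no GATA match, the Hdc region 1 GATA match, and the Cpa3 region 1 GATA and 1 RUNX match. Across 32851 promoters of the same length, 29.8% held a GATA match, 7.8% an AP-1 match and 16.8% a RUNX match. The 3 regions thus had no motif of these in common, and a match is a run of letters, not a site known to be bound.

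Gzmb, Hdc and Cpa3 were higher in LSK cells of blood than of marrow in all 3 treatments, and Srgn by less, while the protease gene Mcpt8 was apart from marrow after G-CSF and overlapped with it in the other treatments. Gzmb was well above background on every blood array and on no marrow array, Hdc was 5.69 to 15.6 times higher in the blood groups and Cpa3 2.58 to 3.53 times. Of the 2 chains that define the IgE receptor on these cells, Ms4a2 was not well above background on any of the 12 arrays. Fcer1a was so on 5 blood arrays and no marrow array, and its arrays lay apart from marrow after G-CSF. The group is therefore called here by its genes and not by a cell type.

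**Figure D1:**
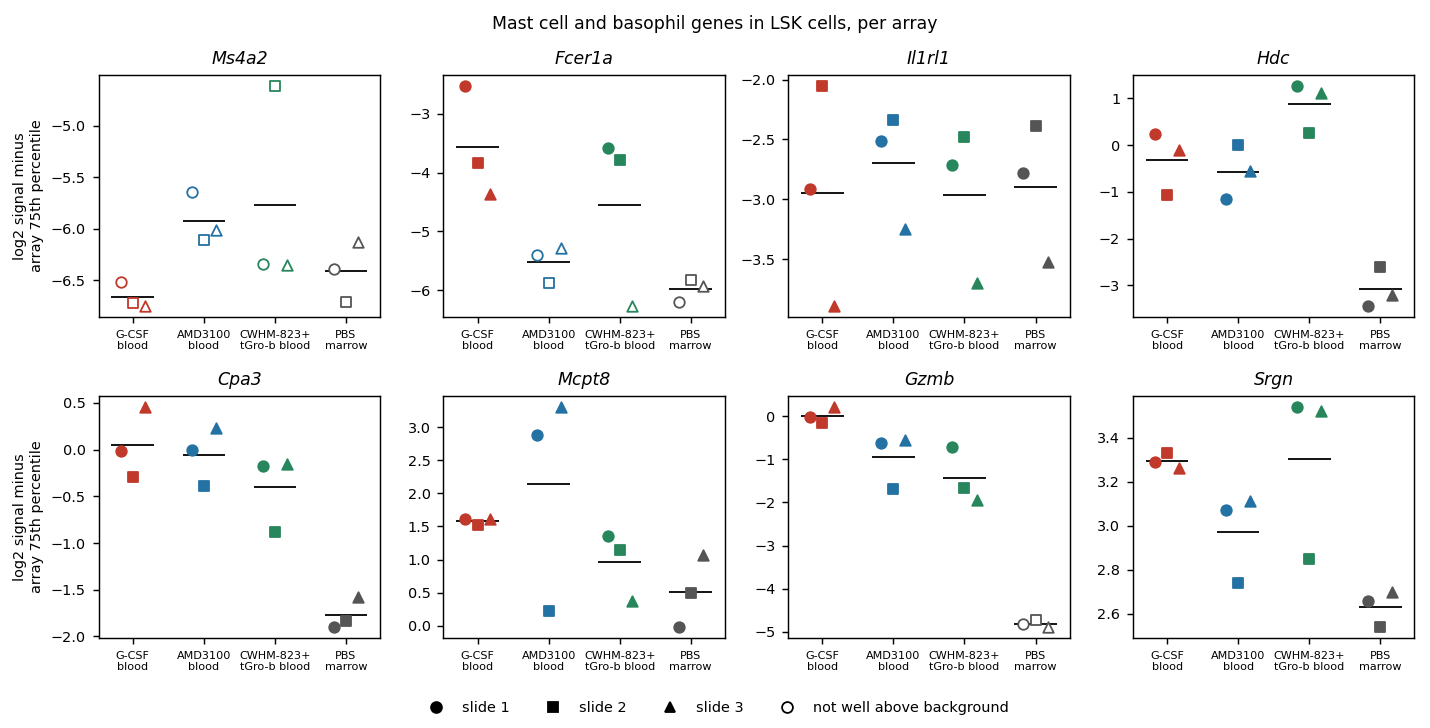
Log2 signal minus the array's 75th percentile (y axis, separate scale per gene) for the 8 genes on the 12 arrays, by group from left to right, with G-CSF, AMD3100 and CWHM-823+tGro-b blood before PBS marrow. Marker shapes are slides, open markers are arrays where the probe was not well above background, and lines are group means (n = 3); Il1rl1 is its brightest probe. Gzmb, Hdc and Cpa3 lie higher on every blood array than on every marrow array, while Il1rl1 follows the slide.

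Gzmb encodes granzyme B, a serine protease that cytotoxic lymphocytes, and in mouse also mast cells, store in granules. It read -0.03, -0.16 and 0.22 on the G-CSF arrays (slides 1, 2 and 3), -0.62, -1.69 and -0.55 on the AMD3100 arrays, -0.72, -1.66 and -1.94 on the CWHM-823+tGro-b arrays, and -4.82, -4.73 and -4.89 on the marrow arrays. All 9 blood arrays were above all 3 marrow arrays, and none of the marrow spots was well above background. On the scale of the processed signal, the gap is therefore a bound. Gzmb was at least 17.4-fold higher after G-CSF, at least 8.90-fold after AMD3100 and at least 6.37-fold after CWHM-823+tGro-b than in marrow. This bound sets each marrow value at the lowest signal on that array that was well above background, unless its own signal was higher. Within blood, the 3 G-CSF arrays lay above all arrays of the other treatments. Their mean was 0.01 ± 0.19 after G-CSF, -0.95 ± 0.63 after AMD3100 and -1.44 ± 0.64 after CWHM-823+tGro-b (SD, n = 3 each). Measured log2 differences from marrow were 4.82, 3.86 and 3.37, and 4.78, 3.82 and 3.34 without the third marrow array. With normexp background correction they were 2.85, 2.06 and 1.65. These are smaller than the bounds above, which hold for the processed signal only.

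Hdc makes histamine from histidine. Its values were 0.23, -1.07 and -0.11 on the G-CSF arrays, -1.16, -0.01 and -0.55 on the AMD3100 arrays and 1.27, 0.25 and 1.12 on the CWHM-823+tGro-b arrays, against -3.44, -2.60 and -3.20 on the marrow arrays, where it was still well above background. Every blood array was above every marrow array. CWHM-823+tGro-b blood was the highest group, and its 3 arrays lay above all 3 arrays of G-CSF (by 0.02 at the closest) and of AMD3100 (by 0.26). The log2 difference from marrow was 2.76 ± 0.46 after G-CSF, 2.51 ± 0.42 after AMD3100 and 3.96 ± 0.40 after CWHM-823+tGro-b (standard error, n = 3 each). Without the third marrow array these were 2.70, 2.45 and 3.90, and with normexp correction 1.81, 1.72 and 2.93. The 2 treatments that read lower, G-CSF and AMD3100, overlapped with each other.

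Cpa3, the carboxypeptidase that mast cells store with heparin, read -0.01, -0.29 and 0.46 on the G-CSF arrays, 0.00, -0.39 and 0.23 on the AMD3100 arrays, -0.18, -0.88 and -0.15 on the CWHM-823+tGro-b arrays and -1.90, -1.83 and -1.58 on the marrow arrays. The blood and marrow arrays did not overlap, and the 3 blood groups overlapped with one another. Log2 differences from marrow were 1.82 ± 0.24, 1.71 ± 0.21 and 1.36 ± 0.26 (standard error) in the order G-CSF, AMD3100 and CWHM-823+tGro-b. Without the third marrow array, the closest of the marrow arrays to blood, they were 1.92, 1.81 and 1.46.

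Srgn encodes serglycin, the proteoglycan core that holds proteases and histamine in granules. It was well above background on all arrays: 3.29, 3.33 and 3.26 on the G-CSF arrays, 3.07, 2.74 and 3.11 on the AMD3100 arrays, 3.54, 2.85 and 3.52 on the CWHM-823+tGro-b arrays, and 2.66, 2.54 and 2.70 on the marrow arrays. Blood arrays lay above marrow arrays in all 3 comparisons, but by 0.03 at the closest for AMD3100, and the log2 differences of 0.66, 0.34 and 0.67 are the smallest among the members that were apart. Without the third marrow array they were 0.69, 0.38 and 0.71.

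Mcpt8 encodes mMCP-8, a protease known mainly from mouse basophils. It read 1.62, 1.53 and 1.62 on the G-CSF arrays, 2.88, 0.23 and 3.31 on the AMD3100 arrays, 1.36, 1.14 and 0.37 on the CWHM-823+tGro-b arrays, and -0.02, 0.50 and 1.07 on the marrow arrays. The AMD3100 arrays ranged most widely: those of slides 1 and 3 were the 2 highest of all 12, while the array of slide 2 was below 2 of the 3 marrow arrays. The G-CSF arrays lay above all marrow arrays (log2 difference 1.07 ± 0.32, 1.35 without the third marrow array). Here ± is the standard error of the difference. AMD3100 (1.62 ± 1.01) and CWHM-823+tGro-b (0.44 ± 0.44) overlapped with marrow (1.90 and 0.72 without the third marrow array), and the AMD3100 group did not overlap with marrow once its slide 2 array was left out.

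Fcer1a, the IgE-binding chain of the receptor, was well above background on all 3 G-CSF arrays (-2.52, -3.83 and -4.36) and on 2 of the CWHM-823+tGro-b arrays (-3.58 and -3.79; -6.27 on the array of slide 3, not well above background), and on none of the AMD3100 or marrow arrays. It was at least 1.45-fold higher after G-CSF than in marrow and at least 1.05-fold higher than after AMD3100. The measured log2 difference from marrow after G-CSF was 2.42, against 2.45 without the third marrow array and 0.96 with normexp correction. Ms4a2, the beta chain of the same receptor, was not well above background on any array, and its spots carried 21.58 to 82.95 signal units, so no order of the groups can be read. Fcer1g, the signalling gamma chain that other Fc receptors share, was well above background everywhere and averaged 1.59 ± 0.40 after G-CSF, 1.28 ± 0.25 after AMD3100, 1.52 ± 0.38 after CWHM-823+tGro-b and 1.19 ± 0.15 in marrow (SD, n = 3 each). Its limma adjusted p against marrow was 0.403, 0.881 and 1.0.

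Il1rl1 encodes ST2, the IL-33 receptor. Its brightest probe was well above background on all 12 arrays but did not separate the groups: it read -2.91, -2.05 and -3.89 on the G-CSF arrays, -2.51, -2.34 and -3.25 on the AMD3100 arrays, -2.71, -2.48 and -3.70 on the CWHM-823+tGro-b arrays, and -2.78, -2.39 and -3.52 on the marrow arrays. In each of the 4 groups the slide 2 array was highest and the slide 3 array lowest. Its differences from marrow were -0.05, 0.20 and -0.07 in the order G-CSF, AMD3100 and CWHM-823+tGro-b. Without the third marrow array they were -0.36, -0.11 and -0.38, which turns the sign after AMD3100. That takes the lowest marrow value out while slide 3 stays in the blood groups, so the slides are no longer balanced. Within slides 1, 2 and 3 the differences were -0.13, 0.34 and -0.37 after G-CSF and 0.27, 0.05 and 0.27 after AMD3100. After CWHM-823+tGro-b they were 0.07, -0.10 and -0.18. The other 2 probes, including that of the short transcript, were not well above background on any array.

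**Figure D2:**
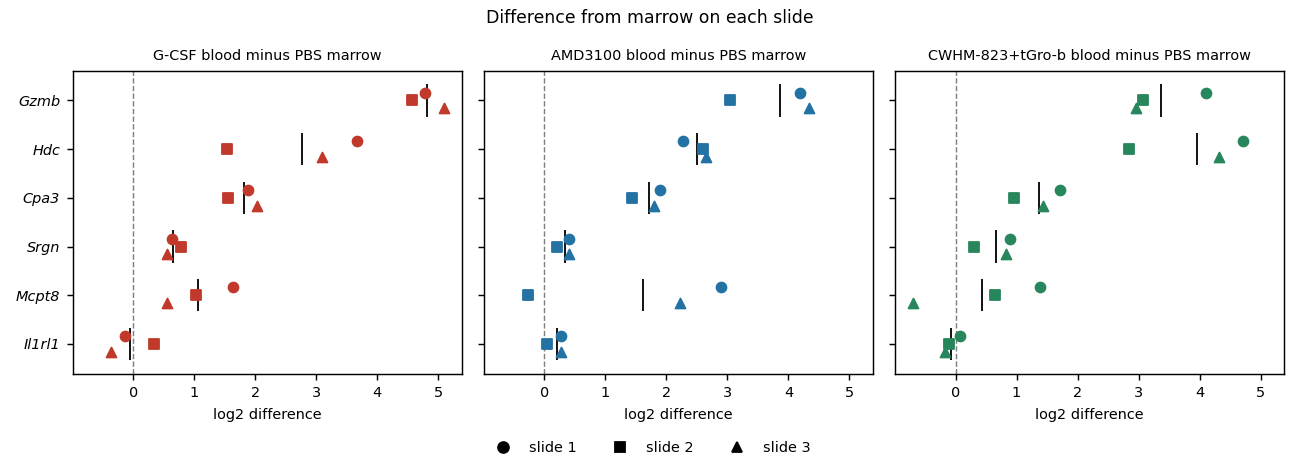
Log2 difference from PBS marrow on the same slide (x axis) for 6 genes, with G-CSF, AMD3100 and CWHM-823+tGro-b blood in separate panels. Markers are the slides and vertical lines the differences of group means. Gzmb, Hdc and Cpa3 lie right of 0 on all slides in all panels, while Mcpt8 crosses 0 in the AMD3100 panel (-0.26 on slide 2) and in the CWHM-823+tGro-b panel (-0.70 on slide 3). The Gzmb differences use marrow signals that were not well above background.

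Counted over the group, 6 of the 8 genes had G-CSF arrays all above the marrow arrays, against 11.7% of all 23793 genes tested, 4 of 8 after AMD3100 (14.6%) and 4 of 8 after CWHM-823+tGro-b (4.46%). None was lower throughout, and the genes were picked for such values, so nothing is read from these shares. Gzmb, Hdc, Cpa3 and Srgn were apart in all 3 comparisons. The authors' own table of normalized intensities holds Hdc, Cpa3 and Srgn but not Gzmb. Only 2 genes were apart from marrow after AMD3100 in it, so not all of these 3 were. The Srgn difference after AMD3100 was 0.26 there. Between the blood groups, 3 of 8 were higher after G-CSF than after AMD3100 (Gzmb, Srgn and Fcer1a; 19.8% of all genes), and G-CSF against CWHM-823+tGro-b gave 2 higher (Gzmb and Mcpt8; 6.46%) and 1 lower (Hdc; 6.76%). CWHM-823+tGro-b against AMD3100 gave 1 higher (Hdc; 11.2%). The comparisons with marrow share the same 3 marrow arrays, so their agreement is no independent evidence. The median log2 difference of all genes from marrow was -0.25 after G-CSF, 0.11 after AMD3100 and -0.05 after CWHM-823+tGro-b on this scale, and -0.10, 0.02 and -0.03 after quantile normalization. For G-CSF against AMD3100 blood the median was -0.37, and -0.1 after quantile normalization.

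Gzmb and Mcpt8 lie in one cluster of granule protease genes on chromosome 14 that, in the RefSeq order, runs through 15 protein-coding genes starting at Cma1 and ending at Gzmb. The cluster includes mast cell chymases, cathepsin G of neutrophils and several granzymes. Of the 15 genes, only Gzmb was well above background on no marrow array and on all arrays of every blood group. Its nearest granzyme neighbour on the array, Gzmc, was above background throughout, with -2.01 ± 0.56 after G-CSF, -1.15 ± 0.23 after AMD3100 and -1.59 ± 0.45 after CWHM-823+tGro-b, against -1.57 ± 0.35 in marrow (SD, n = 3 each). Gzmn and Gzmf were not well above background on any array.

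**Figure D3:**
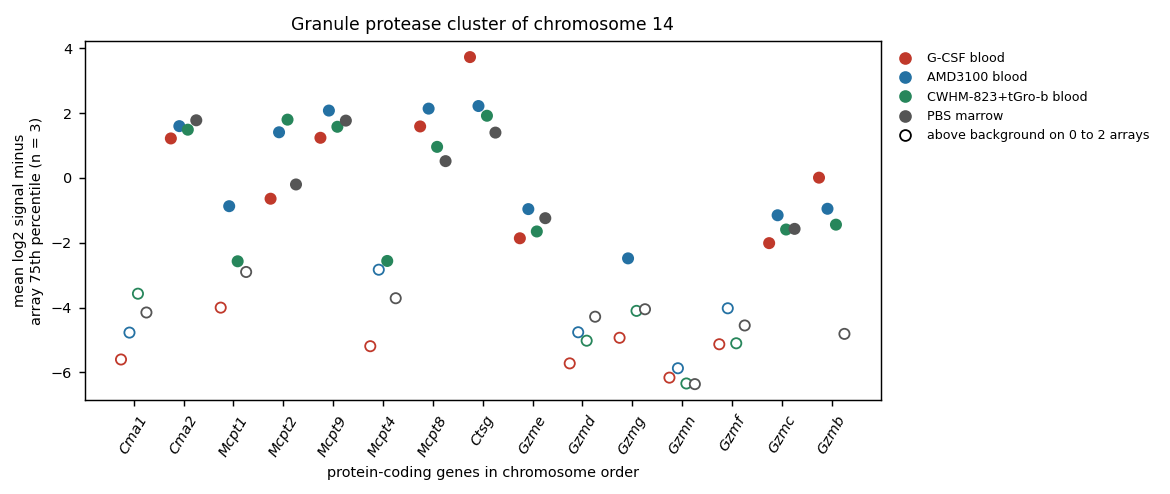
Mean log2 signal minus the array's 75th percentile (y axis, n = 3) of the 15 protein-coding genes of the chromosome 14 granule protease cluster in chromosome order (x axis), with G-CSF, AMD3100 and CWHM-823+tGro-b blood left of PBS marrow for each gene. Open symbols mark groups with 0 to 2 arrays well above background, and Gzme is its brighter probe. Heights are compared within a gene only; Gzmb is open in marrow alone, and Ctsg is highest after G-CSF.

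The other genes of the pathway were taken from 7 lists of 86 genes, all on the array, 77 of them tested with limma over all 23793 genes. After G-CSF 7 passed as higher and 0 as lower than marrow, after AMD3100 2 and 1, and after CWHM-823+tGro-b 3 and 0. The shares of all genes that passed were 1.74%, 1.42% and 0.37%. The lists were chosen with earlier results of these data known, so nothing is read from these shares or from the list counts below. Adjusted p-values of list genes are a description for the same reason. A gene that missed the threshold is not shown to have had like levels. For the counts at an unadjusted p under 0.05 given below, the share of all genes was not counted, and nothing is read from them. Without the third marrow array 6, 3 and 2 genes passed. With the slide as a block, which the same-numbered arrays bear out, the counts were 19 and 4, 7 and 10, and 5 and 0, beside 19.5%, 13.5% and 1.08% of all genes. The same shares stand beside the block counts of single lists against marrow below. Leaving out 1 array took the AMD3100 count as low as 1 (marrow array 1 or 2 left out) and the CWHM-823+tGro-b count as low as 1 (marrow array 2, or CWHM-823+tGro-b array 1 or 2).

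Among the mast cell proteases and cathepsin G, 8 of 11 were tested. Cathepsin G, Ctsg, was higher after G-CSF, averaging 3.73 ± 0.34 in G-CSF blood and 1.40 ± 0.46 in marrow (SD, n = 3 each), a log2 difference of 2.33 ± 0.31 (limma adjusted p = 0.00226). No other gene of this list passed against marrow in any treatment, while 4 had an unadjusted p under 0.05 after G-CSF, 2 after AMD3100 and 2 after CWHM-823+tGro-b (the first including Ctsg), and 3, 1 and 0 passed with the slide as a block. The tryptase Tpsb2 averaged 0.92 ± 0.30 in G-CSF blood, 1.73 ± 0.11 after AMD3100, 1.35 ± 0.40 after CWHM-823+tGro-b and 1.5 ± 0.13 in marrow. The chymase Mcpt4 was well above background on 1, 2, 3 and 2 arrays of those groups in that order, the chymase Cma1 on 1, 0, 2 and 2, and neither Cma1 nor the basophil tryptase Prss34 passed the filter on dim probes. Against AMD3100, the G-CSF group was lower in Mcpt1 (-3.12 ± 1.04, adjusted p = 0.0417) and Mcpt4 (-2.36 ± 0.72, adjusted p = 0.0321), each above background on part of the G-CSF arrays, while against CWHM-823+tGro-b it was lower in Mcpt2 (-2.45 ± 0.48, adjusted p = 0.0443) and higher in Ctsg (1.81 ± 0.31, adjusted p = 0.0216). Tpsb2 was also lower after G-CSF than after AMD3100 (-0.81 ± 0.26, adjusted p = 0.0359). In that comparison 4 genes of the list passed as lower and 1 as higher, beside 31.1% of all genes in either direction. Ctsg averaged 3.73 after G-CSF and 2.22 after AMD3100. Near-identical members such as Mcpt1 and Mcpt2 may share probe signal.

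Of 13 receptor genes tested, 3 passed as higher after G-CSF. They were Csf2rb2 (2.66 ± 0.28 in G-CSF blood and -0.61 ± 0.16 in marrow, difference 3.27 ± 0.24, adjusted p = 3.29e-05), Csf2rb (2.25 ± 0.30, adjusted p = 0.00209) and the tetraspanin Cd9 (2.05 ± 0.32, adjusted p = 0.00618). Csf2rb is the shared signalling chain of the IL-3, IL-5 and GM-CSF receptors and Csf2rb2 its close copy, so signal may be split between them. Csf2rb2 was also higher after G-CSF than after AMD3100 (2.90 ± 0.24, adjusted p = 0.000225) and than after CWHM-823+tGro-b (3.23 ± 0.24, adjusted p = 8.49e-05), as was Csf2rb (1.95 ± 0.30, adjusted p = 0.00475, and 2.42 ± 0.30, adjusted p = 0.00273). Kit, the stem cell factor receptor and a sort marker, averaged 3.31 ± 0.13 after G-CSF, 3.25 ± 0.20 after AMD3100 and 3.43 ± 0.31 after CWHM-823+tGro-b, against 3.47 ± 0.14 in marrow, and its adjusted p against marrow was 0.649, 0.627 and 1.0. The other sort marker, Ly6a, did pass after G-CSF (0.71 ± 0.10 against -0.95 ± 0.17 in marrow, difference 1.65 ± 0.33, adjusted p = 0.0308).

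Cytokine genes included the largest difference among the 77 related genes. Csf1, the macrophage growth factor, was higher than in marrow after G-CSF (5.05 ± 0.49, adjusted p = 0.000236), AMD3100 (3.23 ± 0.49, adjusted p = 0.0107) and CWHM-823+tGro-b (3.75 ± 0.49, adjusted p = 0.00343), with 2 of 3 marrow arrays above background. Tnf, an inflammatory cytokine that mast cells can store, passed after G-CSF (3.03 ± 0.35, adjusted p = 0.000864) and AMD3100 (1.73 ± 0.35, adjusted p = 0.0353). The chemokine Ccl9 passed after G-CSF (1.28 ± 0.28, adjusted p = 0.0446) and the chemokine Ccl4 after CWHM-823+tGro-b (2.91 ± 0.52, adjusted p = 0.0361). These made 3, 2 and 2 of 10 tested. In G-CSF against AMD3100 blood Csf1 was again higher (1.82 ± 0.49, adjusted p = 0.0218) and the chemokine Ccl3 lower (-1.58 ± 0.41, adjusted p = 0.0198).

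Of 10 enzymes and carriers of mediators, Ptgs1 (cyclooxygenase 1) was lower after AMD3100 (-1.80 ± 0.27, adjusted p = 0.0107). The inducible cyclooxygenase Ptgs2 was detected above background on every CWHM-823+tGro-b array and no marrow array. On the scale of the processed signal this makes it at least 3.06-fold higher. Its limma adjusted p was 0.0241, and it is counted above as passed. However, Ptgs2 passed the filter on dim probes only through the CWHM-823+tGro-b group, where it was high. Nothing is read from that p-value. None passed after G-CSF against marrow, where 4 had an unadjusted p under 0.05 and 2 passed with the slide as a block. G-CSF was above AMD3100 for Ptgs1 (1.04 ± 0.27, adjusted p = 0.0203) and for Ltc4s, the leukotriene C4 synthase (0.95 ± 0.29, adjusted p = 0.031).

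**Figure D4:**
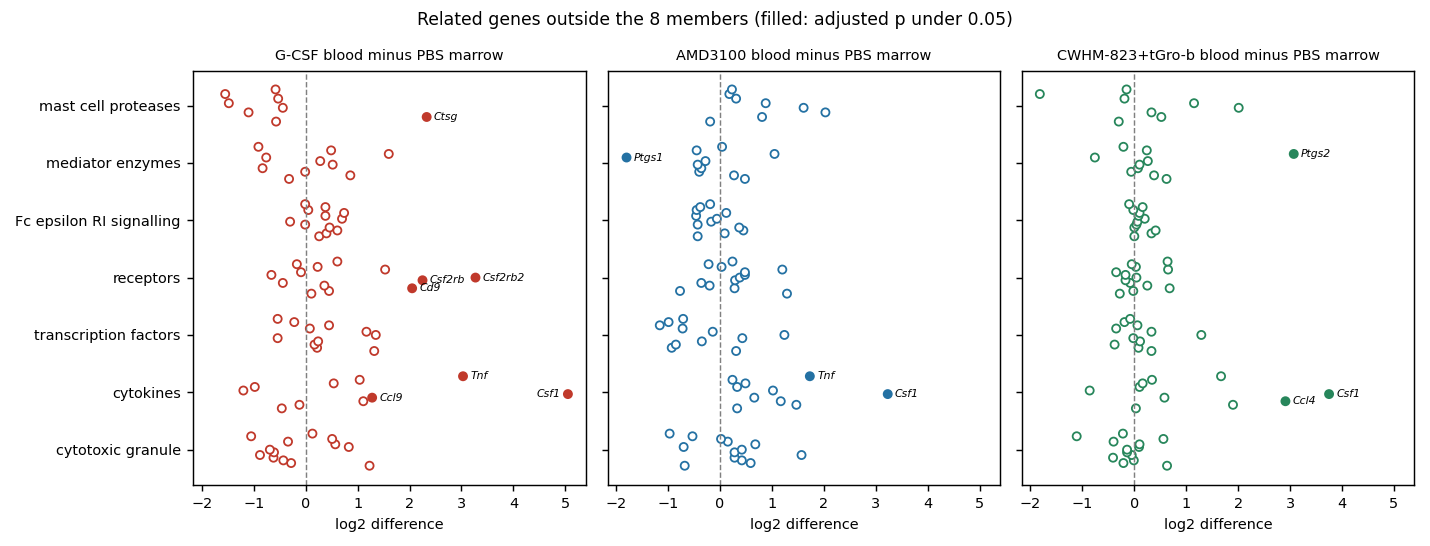
Log2 difference from PBS marrow (x axis) of the tested genes in 7 related lists (rows), with G-CSF, AMD3100 and CWHM-823+tGro-b blood in separate panels. Each point is a gene; filled points with names had an adjusted p under 0.05. Csf1 is filled in all 3 panels and lies farthest right after G-CSF (5.05), while Ctsg is filled after G-CSF alone, at 2.33.

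None of the 12 genes of IgE receptor signalling, 11 transcription factors or 13 cytotoxic granule genes tested passed against marrow. At an unadjusted p under 0.05, 1, 0 and 0 signalling genes, 3, 6 and 1 factors and 4, 4 and 0 granule genes did so after G-CSF, AMD3100 and CWHM-823+tGro-b. With the slide as a block 2, 0 and 0, 4, 7 and 1, and 3, 3 and 0 passed, beside 19.5%, 13.5% and 1.08% of all genes. Gata2, a factor of stem, mast and basophil cells, averaged 1.40 ± 0.47 after G-CSF, 0.38 ± 0.38 after AMD3100 and 0.86 ± 0.49 after CWHM-823+tGro-b, against 1.23 ± 0.45 in marrow (SD, n = 3 each); against AMD3100, G-CSF was higher (1.02 ± 0.35, adjusted p = 0.0473). Mitf, a mast cell factor, read -0.98 ± 0.90, -0.01 ± 0.68 and -0.46 ± 0.93, against -0.43 ± 0.79 in marrow.

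The usual granule partners of Gzmb in lymphocytes did not pass against marrow. Prf1 (perforin), which forms the pore for granzymes, averaged 2.35 ± 0.55 after G-CSF, 2.84 ± 0.42 after AMD3100 and 2.29 ± 0.40 after CWHM-823+tGro-b, against 2.69 ± 0.52 in marrow (adjusted p = 0.562, 0.854 and 1.0). Gzma read -2.02 ± 0.15, -1.16 ± 0.32 and -1.96 ± 0.49, against -1.75 ± 0.35 in marrow (adjusted p = 0.561, 0.314 and 1.0), and was lower after G-CSF than after AMD3100 (-0.86 ± 0.30, adjusted p = 0.0465). Ctsc, the peptidase that activates granzymes, missed the threshold after G-CSF (1.23 ± 0.30, adjusted p = 0.0644, and 0.0151 with the slide as a block). The difference of the granzyme B inhibitor Serpinb9 after G-CSF was -1.05 ± 0.70 (adjusted p = 0.387). Serpinb9 was not well above background on G-CSF array 1, AMD3100 arrays 1 and 3 and CWHM-823+tGro-b array 1. Summed signal of 9 NK cell markers was 1.89 to 3.45 times the 75th percentile on the G-CSF arrays, 4.17 to 5.42 after AMD3100, 2.46 to 4.11 after CWHM-823+tGro-b and 3.06 to 4.33 in marrow, with 7 to 9 of 9 above background. That of 10 T cell markers was 4.22 to 7.38, 7.76 to 11.2 and 5.29 to 8.65, against 6.28 to 7.42 in marrow, with 6 to 10 above background. The T cell sums after AMD3100 lay above those in marrow, and the other sums of these lists overlapped with marrow. Among the other marker lists, the sums after AMD3100 were also above marrow for 6 plasmacytoid dendritic cell markers (45.8 to 59.8 after AMD3100 against 34.7 to 43.3 in marrow) and 8 monocyte markers (32 to 34.4 against 24.1 to 31.4). Those of 7 platelet markers were lower after G-CSF (2.98 to 3.85 against 4.2 to 5.43 in marrow). Single markers that passed against marrow, named after their values were seen, were Siglecf of eosinophils (2.09 ± 0.33, adjusted p = 0.00692), Ccr9 of plasmacytoid dendritic cells (-1.64 ± 0.29, adjusted p = 0.0125) and Pf4 of platelets (-2.31 ± 0.47, adjusted p = 0.0314), all after G-CSF. They were 1 of 6 tested eosinophil, 1 of 6 dendritic cell and 1 of 5 platelet markers. The medians of these lists were -0.61, -0.33 and -0.5, beside -0.25 for all genes. Eosinophil sums after G-CSF overlapped with marrow (2.3 to 3.71 against 2.08 to 3.45), as did dendritic cell sums (27.5 to 38.9 against 34.7 to 43.3). The part of such cells in the members' differences was not tested.

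Between G-CSF and AMD3100 blood, 22 of 77 genes were higher and 8 lower after G-CSF, beside 31.1% of all genes that passed in either direction (29 and 20 with the slide as a block, beside 62.6%). They included Stat5b (1.61 ± 0.26, adjusted p = 0.00527) and Spi1 (1.32 ± 0.30, adjusted p = 0.0133), both factors of myeloid progenitors, the granzyme-activating Ctsc (1.91 ± 0.30, adjusted p = 0.00484), the granule membrane gene Lamp1 (1.52 ± 0.24, adjusted p = 0.00484), and the signalling adaptor Lcp2 (0.84 ± 0.29, adjusted p = 0.047) and phospholipase Plcg2 (0.75 ± 0.24, adjusted p = 0.0364). The differences between these groups are not corrected for the median of all genes, which was -0.37. The number that passed depended on single arrays: 9 genes passed when array 1 of the G-CSF group was left out, 12 when its array 3 was, 14 when array 1 of the AMD3100 group was and 11 when its array 2 was. G-CSF against CWHM-823+tGro-b gave 3 higher and 1 lower (0.626% of all genes), and 5 and 3 with the slide block (2.2%). CWHM-823+tGro-b against AMD3100 gave 0 with limma (0.147% of all genes), where 15 had an unadjusted p under 0.05 and the fit with the slide as a block called 12 higher and 3 lower (16.9% of all genes).

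The genes whose levels most resembled each member's over the 12 arrays were sought among 15431 genes. The likeness is Pearson's r, a description over arrays that share 4 groups and 3 slides. For Gzmb they were Myadm (0.974), S100a11 (0.973) and Ets1 (0.972). The marrow values of Gzmb were not well above background, so its r rests in part on signals that are not measured levels. For Hdc they were Egr2 and Klf4 (both 0.958) and Rnf19b (0.944), and for Cpa3 Vim (0.993), Tspan2 (0.961) and Klf2 (0.942). For Srgn the first and second were Avpi1 (0.949) and Cd24a (0.931). The genes were for Mcpt8 Pld4 (0.859), Cyb5d1 (0.814) and Nsa2 (0.807), and for Il1rl1 Batf3 (0.941), Triml2 (0.936) and Abca14 (0.932). Members themselves were not candidates.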

How the data were processed

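RNA of sorted LSK cells was amplified with WTA2, labelled with Kreatech ULS (Cy5) and hybridised to 12 one-colour Agilent arrays, per the labels. Per the file headers, the authors extracted the deposited processed signal, an intensity, with Agilent Feature Extraction 11.5.1.1 (also named in the submitters' processing notes), which subtracted background, corrected trends within the array and put surrogates in place of very low spots. It was not scaled between arrays. The authors' second deposited table holds normalized intensity values for 30354 probes, 5 of them members' (Cpa3, Hdc, Mcpt8, Srgn and 1 Il1rl1 probe); its method was not given in the sources used here. The number of arrays limits the precision.

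The log2 of the deposited processed signal, with outlier spots dropped, replicate spots averaged and the array's log2 75th percentile subtracted, was analysed. A probe stayed in if every array of 1 group or more had it well above background (29641), and the probe with the highest mean stood for each gene (23793 genes, symbols brought up to date by accession for 28324 probes). Group means were estimated from all 12 arrays together in limma 3.58.1 (R 4.3.3; 8 residual and 3.82 prior degrees of freedom), 2-sided, with Benjamini-Hochberg adjustment over all genes of a comparison and a threshold of 0.05. With group means taken out, same-numbered arrays (18 pairs) correlated with r of 0.26 to 0.616 and the 36 others a median of -0.24, so slide and replicate number pair the arrays. The procedure was tested on simulated data. Members and lists were chosen with earlier results of these data known. Text values follow a fixed rule: all members' probes, up to 4 passing genes per list against marrow and 2 between blood groups, by size, 14 genes given always (Kit, Gata2, Mitf, Fcer1g, Cma1, Mcpt4, Tpsb2, Prss34, Ctsg, Gzma, Prf1, Ctsc, Serpinb9 and Ly6a), and the 3 likest genes per member (1 for Srgn is not reported here). Alternatives were quantile normalization, normexp (offset 50), the authors' table, other filters, the slide block, a trended robust prior, only the groups compared, the mean of a gene's probes and leaving out each array.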

Additional observations from a re-analysis of the deposited data

How the results depend on the processing

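With the slide as a replicate block, 23 related genes passed for G-CSF against marrow (7 without it), 17 for AMD3100 (3), 5 for CWHM-823+tGro-b (3), 49 for G-CSF against AMD3100 (30), 8 for G-CSF against CWHM-823+tGro-b (4) and 15 for CWHM-823+tGro-b against AMD3100 (0). A trended, robust prior gave 11 for G-CSF against marrow, quantile normalization 6 for AMD3100 against marrow, and fitting only the groups compared 19 for G-CSF against AMD3100. For CWHM-823+tGro-b against marrow, the authors' table gave 1 and requiring signal above background on all arrays 1. Leaving out each array in turn gave 6 to 9, 1 to 3 and 1 to 2 genes against marrow in the order G-CSF, AMD3100 and CWHM-823+tGro-b, 9 to 36 for G-CSF against AMD3100, 2 to 4 for G-CSF against CWHM-823+tGro-b and 0 to 0 for CWHM-823+tGro-b against AMD3100. The lowest count of 1 came without marrow array 1 or 2 for AMD3100, and without marrow array 2 or CWHM-823+tGro-b array 1 or 2 for CWHM-823+tGro-b. G-CSF against CWHM-823+tGro-b gave 2 without G-CSF array 3 or CWHM-823+tGro-b array 2 or 3. The count of the 8 genes whose arrays were apart from marrow was 6 after G-CSF whichever array was left out, 4 to 5 after AMD3100 and 4 to 6 after CWHM-823+tGro-b, the 6 without CWHM-823+tGro-b array 3. It was 5 after G-CSF with normexp correction, and in the authors' table, which holds 5 of the 8 genes, 4 after G-CSF, 2 after AMD3100 and 3 after CWHM-823+tGro-b. Of 174 differences of single members under other settings, 22 moved by more than the spread between arrays, 16 of them with normexp correction, 5 with quantile normalization and 1 in the authors' table. The causes were not tested. Signals of Ms4a2, Fcer1a and marrow Gzmb near background limit what can be read from them.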
